A study of Homo sapiens with 4 samples.

Results

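The genes described here are NF-kB subunits, their inhibitors, and cytokines, survival factors and enzymes whose genes NF-kB is known to act on. They were chosen by symbol, 34 genes of 39519 in the table, and all 34 had a row. The cells were U2OS, a human line established from an osteosarcoma, and their RNA was sequenced after removal of ribosomal RNA. The control group (sh-NC) received DMSO (n = 2 libraries). The knockdown group (sh-PURB) carried a short hairpin RNA against PURB, a single-stranded nucleic acid binding protein, switched on with doxycycline at 5 µg/ml (n = 2 libraries), and the time was 72 h. Doxycycline was given to the knockdown group alone, so the hairpin and the drug cannot be told apart. Whether 1 hairpin sequence served both knockdown libraries, and whether the libraries came from separate cultures, is not in the labels, so a p-value here covers no more than the spread between libraries, and that spread may be technical.

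NF-kB is a family of dimeric transcription factors built from the Rel proteins RELA, RELB and REL and from the products of NFKB1 and NFKB2. In resting cells the dimers are held in the cytoplasm by inhibitor of kappa B (IkB) proteins such as the product of NFKBIA, until a kinase complex marks the inhibitor for destruction and the dimers enter the nucleus. NFKBIA and TNFAIP3 are themselves NF-kB targets, which makes them feedback inhibitors, and chemokines such as CXCL8 are classical secreted targets.

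The values were TPM, a level per gene corrected for transcript length and for the total of the library, from which no read depth can be had. In a library 13298 to 14207 genes reached 1 TPM. Protein-coding genes held 25.3% to 26.9% of the TPM of a library. Genes over 1% of any library together took 62.2% and 59.4% in sh-NC and 65.2% and 63.2% in sh-PURB. The TPM of every other gene also depends on these shares. PURB mRNA, the target, was at 5.29 and 6.55 TPM in control cells and at 2.46 and 2.69 TPM in knockdown cells, and the groups did not overlap. The PURB difference had a limma adjusted p of 0.102 over all genes, and permuting the 4 libraries exactly (two-sided) gave p = 0.33, the smallest possible with 2 against 2. Of the mesenchymal and bone markers, VIM (298 to 342 TPM) and SPARC (220 to 262 TPM) were high in every library, whereas COL1A2 (0.0803 to 0.509 TPM) and ALPL (0.0810 to 0.239 TPM) were near 0. Between them lay COL1A1 (9.53 to 39.7 TPM) and RUNX2 (1.92 to 3.92 TPM). The 8 blood cell markers summed to 4.01 and 8.81 TPM in control cells and to 5.13 and 3.64 TPM in knockdown cells. Among these 8, CD68 was at 2.36 and 4.67 TPM in control cells and at 4.35 and 2.21 TPM in knockdown cells. PTPRC was at 0.812 and 1.63 TPM in control cells and at 0.651 and 1.15 TPM in knockdown cells. The macrophage marker AIF1 was listed at 0 in every library. LYZ was at 0.0958 and 2.11 TPM in control cells and at 0.0347 and 0 TPM in knockdown cells. Epithelial markers (4 genes) summed to 5.59 and 4.67 TPM in control cells and to 6.29 and 4.41 TPM in knockdown cells. Endothelial markers (4 genes) summed to 0.942 and 1.12 TPM in control cells and to 0.784 and 1.11 TPM in knockdown cells.

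Promoter sequences of 4 genes that lay lower in both sh-PURB libraries are shown first, because 3 of them hold a match to a kB-type motif close to the start of the gene and the other holds one farther upstream. Each is the 250 bases before the transcription start in RefSeq (GRCh38.p14), written 5′ to 3′ on the strand of the gene. Capitals mark matches to the kB-type motif GGNNTTTCC on either strand and, in CXCL8, also a match to the AP-1-type motif TGANTCA.
NFKBIA, chr14:35404750-35404999, minus strand: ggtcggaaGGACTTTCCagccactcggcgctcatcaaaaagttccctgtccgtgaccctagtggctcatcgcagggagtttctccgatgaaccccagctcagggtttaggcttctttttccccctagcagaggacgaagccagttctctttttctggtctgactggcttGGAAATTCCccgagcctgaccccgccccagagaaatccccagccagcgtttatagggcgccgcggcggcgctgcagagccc
CXCL8, chr4:73740319-73740568, plus strand: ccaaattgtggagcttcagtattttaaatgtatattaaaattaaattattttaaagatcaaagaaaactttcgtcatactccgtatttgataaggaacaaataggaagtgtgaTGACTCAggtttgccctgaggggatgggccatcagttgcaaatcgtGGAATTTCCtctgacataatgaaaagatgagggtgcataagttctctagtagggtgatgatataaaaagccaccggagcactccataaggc
TNFAIP3, chr6:137867009-137867258, plus strand: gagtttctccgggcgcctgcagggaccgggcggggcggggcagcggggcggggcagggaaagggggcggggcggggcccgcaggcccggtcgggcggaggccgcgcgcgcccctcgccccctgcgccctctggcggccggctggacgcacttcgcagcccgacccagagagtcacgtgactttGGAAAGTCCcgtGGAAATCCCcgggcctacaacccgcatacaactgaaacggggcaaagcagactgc
BIRC3, chr11:102317234-102317483, plus strand: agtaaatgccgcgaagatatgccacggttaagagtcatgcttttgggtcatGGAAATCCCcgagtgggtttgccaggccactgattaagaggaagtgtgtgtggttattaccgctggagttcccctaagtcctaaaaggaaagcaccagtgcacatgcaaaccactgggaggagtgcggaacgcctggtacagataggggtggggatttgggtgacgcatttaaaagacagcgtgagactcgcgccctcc

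The kB-type match of NFKBIA nearest to its start covers bases -81 to -73, and a second lies at -242 to -234. In CXCL8 the kB-type match covers bases -91 to -83, with the AP-1-type match at -137 to -131. TNFAIP3 has matches at -67 to -59 and at -55 to -47, and BIRC3 has 1 at -199 to -191. Among all 35116 promoter windows of the same length, 5.48% held the kB-type motif and 6.57% the AP-1-type motif, with both strands searched. RefSeq windows were found for 29 of the 34 genes (not for CCL2, CSF1, LIF, NFKBIE and RELB), and 18 of the 29, or 62.1%, held the kB-type motif in at least 1 window, against 6.69% of all 27305 symbols. These genes were listed for their known tie to NF-kB, and the motifs were chosen after promoters had been searched. This share is therefore a description only, and a match is not shown to be a bound site. For the AP-1-type motif the count was 4 of 29, or 13.8% (CXCL8, IL11, IL1A and NFKBIB), against 8.06% of all symbols.

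The 3 neighbouring chemokine genes CXCL1, CXCL2 and CXCL3 are shown because they hold a kB-type pair at nearly the same place and yet were at or near 0 TPM here. The stretches run from base -90 to base -41 (GRCh38.p14).
CXCL1, chr4:73869303-73869352, plus strand: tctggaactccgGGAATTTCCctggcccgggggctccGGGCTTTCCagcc
CXCL2, chr4:74099236-74099285, minus strand: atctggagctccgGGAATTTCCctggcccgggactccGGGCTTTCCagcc
CXCL3, chr4:74038730-74038779, minus strand: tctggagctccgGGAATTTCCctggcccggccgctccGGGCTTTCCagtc

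**Figure D1:**
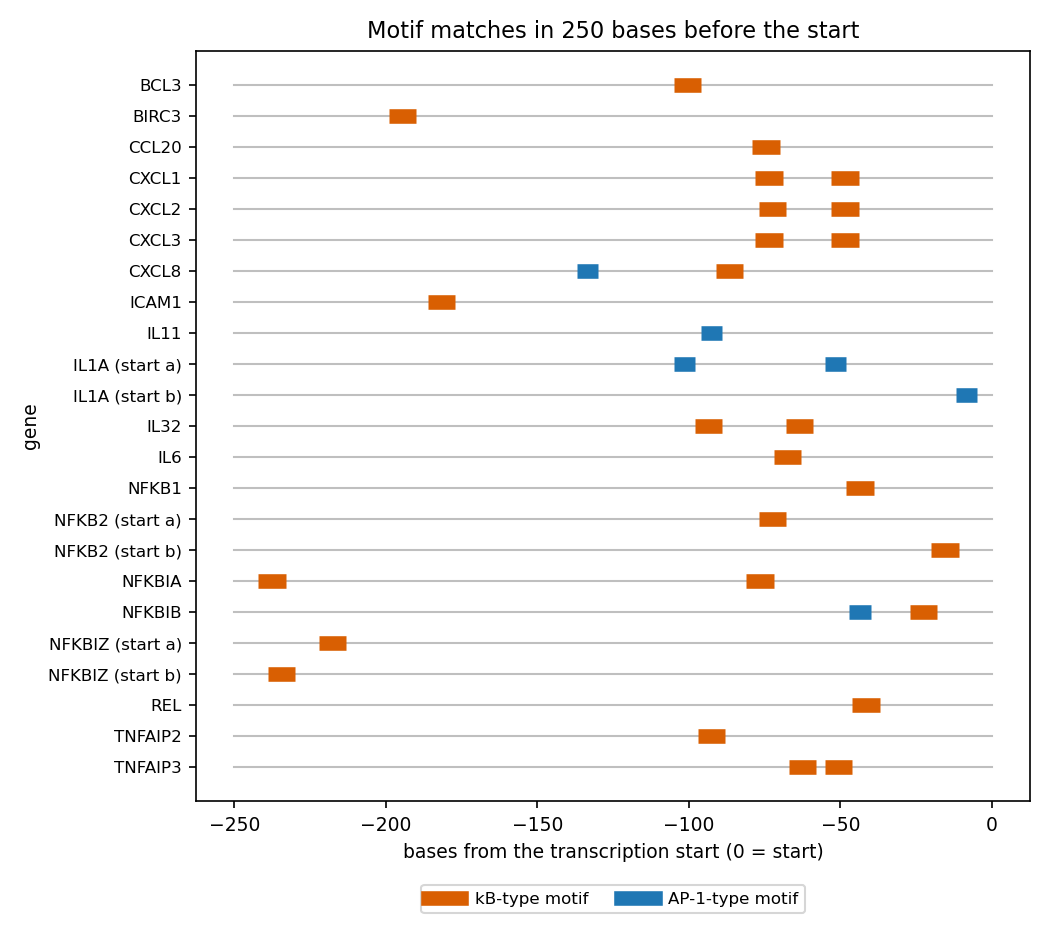
Positions of kB-type (orange) and AP-1-type (blue) motif matches in the 250 bases before the transcription start, in bases from the start, for each of the listed genes with a match (genes with more than 1 matching RefSeq start have a line for each). The kB-type pairs of CXCL1, CXCL2 and CXCL3 lie at the same distance within 1 base, and the match of CXCL8 at -91 to -83.

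The transcripts of the NF-kB subunits differed little, while the feedback inhibitor NFKBIA and the chemokine CXCL8 lay well below control in both sh-PURB libraries. Of the 34 genes, 23 reached 1 TPM in at least 2 libraries and were tested, 22 of them reaching it in all 4, and 11 stayed below this filter. In limma over all 14269 tested genes, 0 of the 23 passed an adjusted p of 0.05, where 0.287% of all tested genes did. At an unadjusted p under 0.05 there were 5, all lower (NFKBIA, CXCL8, BCL3, BIRC2 and TNFAIP2), which is 21.7% of the 23. Of all tested genes 9.53% were lower and 5.77% higher by that count. The difference was below 0 for 19 of the 23 (82.6%, background 58.4%). Both sh-PURB libraries lay below both sh-NC libraries for 11 of the 23 (47.8%, background 29.3%) and above them for 1, CCL2 (4.35%, background 18.6%). The median difference of the 23 in log2(TPM + 1), sh-PURB minus sh-NC, was -0.23, beside -0.06 for all tested genes. Relative to all genes it was -0.17, and it ran from -0.05 without sh-PURB replicate 2 to -0.30 without sh-PURB replicate 1.

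**Figure D2:**
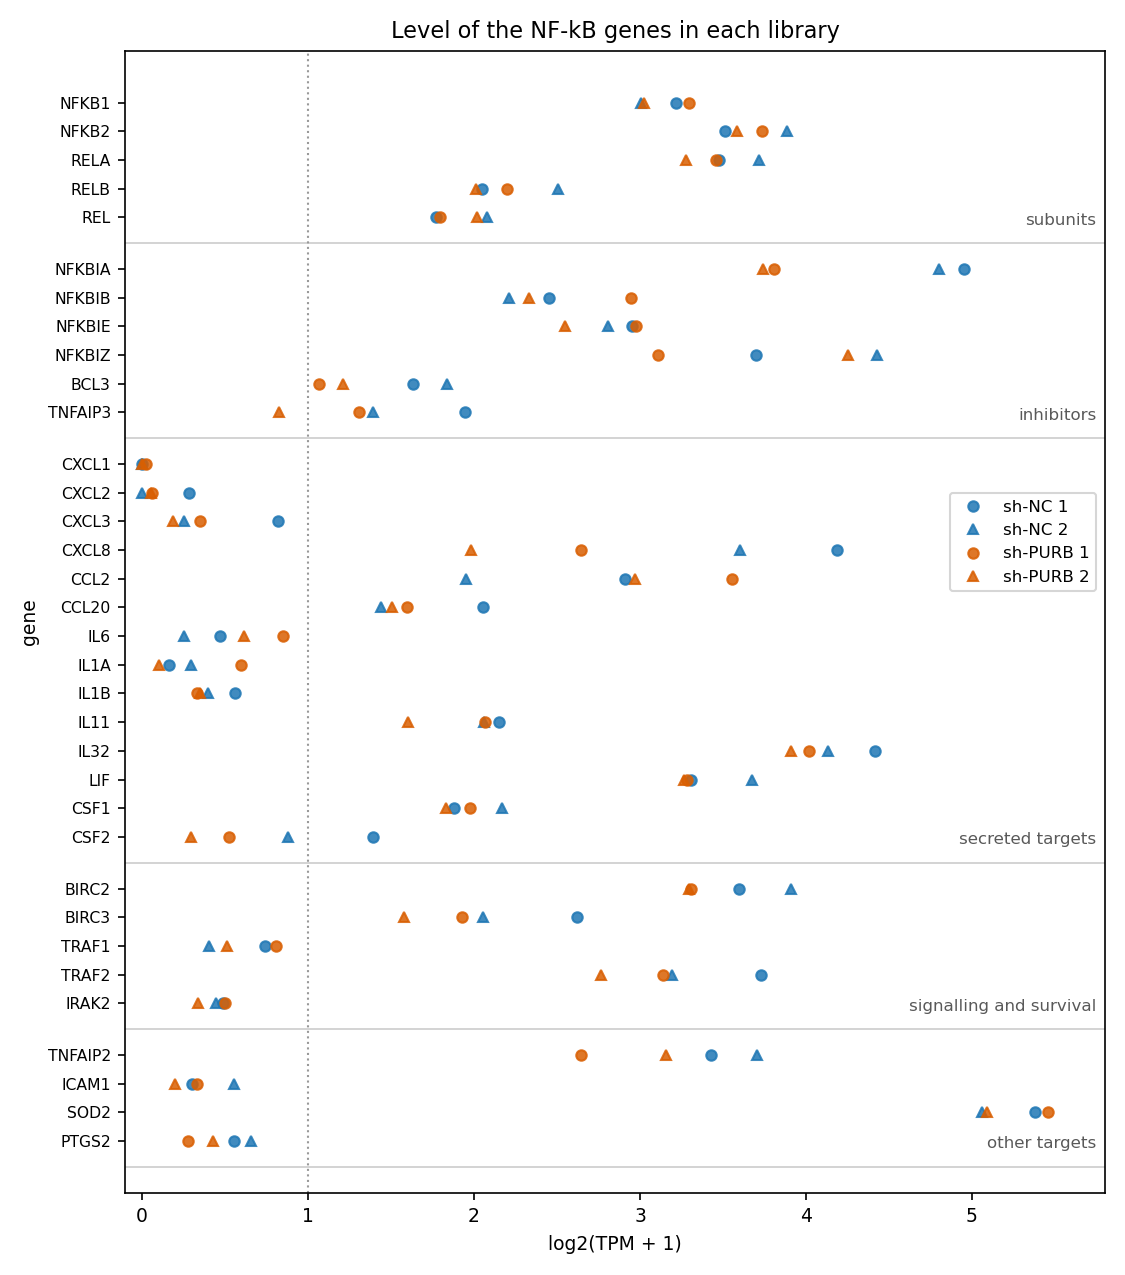
Level of each of the 34 genes in each library, as log2(TPM + 1), grouped by role; colour gives the group, shape the replicate number, and the dotted line marks 1 TPM. NFKBIA (12.4 to 29.9 TPM) and CXCL8 (2.95 to 17.2 TPM) show a gap between the groups, and the 5 subunits do not, apart from a narrow one in RELA.

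When protein-coding genes alone were rescaled to a common sum and fitted, limma called NFKBIA and CXCL8 lower at an adjusted p under 0.05. These were 2 of the 23, or 8.70%, where 2.15% of the 11928 protein-coding genes tested were called lower. None of the 23 was called higher in that fit, where 1.33% of protein-coding genes were. This fit borrows more spread from other genes (5.75 prior degrees of freedom against 2.92) as well as testing fewer genes.

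All 5 subunits were expressed, at single-digit to low double-digit TPM. NFKB2, whose product p100 is processed to p52, was the highest of them at 10.4 and 13.8 TPM in control cells and 12.3 and 11.0 TPM in knockdown cells. RELA, which encodes the p65 subunit with a strong activation domain (chromosome 11, 65653596 to 65663094, GRCh38), was at 10.1 and 12.1 TPM in control cells and at 9.97 and 8.71 TPM in knockdown cells. RELA alone of the 5 did not overlap between the groups, with a gap between 9.97 and 10.1 TPM that was small beside the spread within a group. NFKB1, which encodes p105 and its product p50, was at 8.31 and 7.03 TPM in control cells and at 8.80 and 7.12 TPM in knockdown cells.

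RELB, the partner of p52 in the non-canonical pathway, was at 3.14 and 4.67 TPM in control cells and 3.59 and 3.04 TPM after knockdown. REL, best known from lymphoid cells, was lowest at 2.41 and 3.22 TPM in control cells and 2.47 and 3.05 TPM after knockdown. In order of mean control level the genes ran NFKB2, RELA, NFKB1, RELB, REL; NFKB2 and RELA overlapped with each other, as their control libraries spread over 10.4 to 13.8 and 10.1 to 12.1 TPM, and so did RELB and REL. Their limma adjusted p-values over all genes lay between 0.549 (RELA) and 0.981 (REL), and the median difference of the 5 was -0.04 on the log2(TPM + 1) scale.

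The 6 genes listed as inhibitors include BCL3 and NFKBIZ, which encode nuclear members of the IkB family. The median log2(TPM + 1) difference of the 6 was -0.49, which falls between NFKBIZ (-0.38) and BCL3 (-0.60). Of the 6, 5 lay below 0, and NFKBIA had the lowest difference. It encodes IkB-alpha, the IkB protein that is degraded and resynthesized in each round of NF-kB signalling (chromosome 14, 35401511 to 35404749, minus strand, GRCh38). NFKBIA was at 29.9 and 26.8 TPM in the control libraries and at 13.0 and 12.4 TPM in the knockdown libraries. Both sh-PURB libraries lay far below both controls, and the libraries within each group were close. In bulk RNA, a lower level in every cell and fewer cells with the transcript cannot be told apart. The mean went from 28.4 ± 2.2 to 12.7 ± 0.431 TPM (SD, n = 2 each), 2.24-fold lower. The log2(TPM + 1) difference was -1.10 with a standard error of 0.12 and just missed the threshold in limma over all genes (adjusted p = 0.0525). Its limma adjusted p was 0.00992 among protein-coding genes alone and 0.0303 with the filter at 5 TPM, and the highest over 12 alternatives was 0.214, without sh-PURB replicate 1.

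Because a ratio of transcripts within a library does not depend on how that library was scaled, NFKBIA was also set against the subunits. NFKBIA transcripts per subunit transcript (the sum of all 5 subunits) were 0.871 and 0.657 in sh-NC and 0.349 and 0.376 in sh-PURB. The ratio was thus lower in both sh-PURB libraries, and the groups did not overlap. Against NFKBIE, the gene of IkB-epsilon, NFKBIA stood at 4.45 and 4.48 in sh-NC and at 1.89 and 2.55 in sh-PURB. The separation of both ratios follows from the values of the single genes and is no separate evidence.

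The other classical IkB genes did not separate the groups. NFKBIB, which encodes IkB-beta, was at 4.46 and 3.63 TPM in control cells and at 6.70 and 4.03 TPM in knockdown cells, so 1 sh-PURB library was above and the other within the control range. NFKBIE was at 6.73 and 6.00 TPM in control cells and at 6.85 and 4.85 TPM in knockdown cells, on both sides of control. Their adjusted p-values in limma were 0.635 and 0.831.

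BCL3 and NFKBIZ encode nuclear members of the IkB family that bind p50 or p52 at promoters. BCL3 was at 2.10 and 2.57 TPM in control cells and at 1.09 and 1.31 TPM in knockdown cells, a ratio of 0.515 with no overlap (log2 difference -0.60, SE 0.20, limma adjusted p = 0.273). NFKBIZ varied more between replicates than between groups, at 12.0 and 20.5 TPM in control cells and at 7.61 and 18.1 TPM in knockdown cells. TNFAIP3, which encodes the ubiquitin-editing enzyme A20 that shuts down signalling to NF-kB, was at 2.85 and 1.62 TPM in control cells and at 1.47 and 0.775 TPM in knockdown cells. The TNFAIP3 groups did not overlap, but the highest sh-PURB library was close to the lowest control (ratio of means 0.502, limma adjusted p = 0.419).

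**Figure D3:**
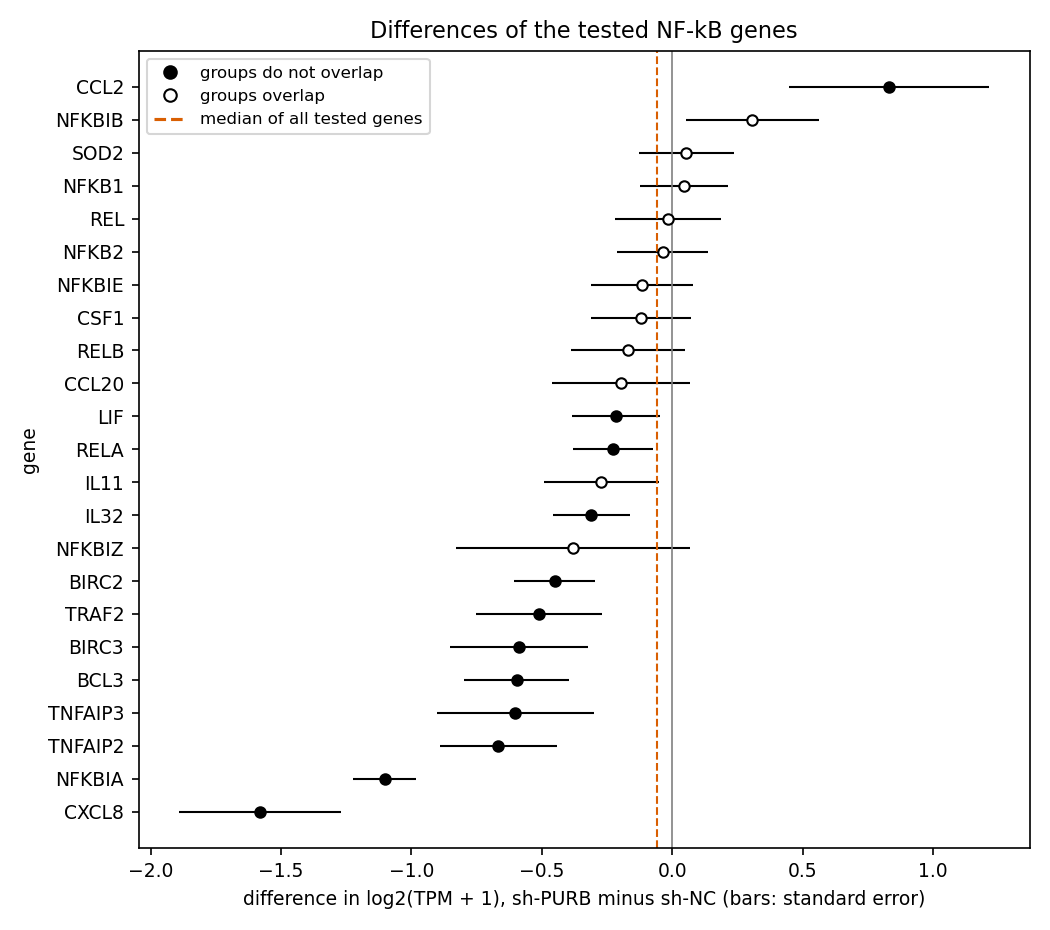
Difference in log2(TPM + 1), sh-PURB minus sh-NC, of the 23 tested genes, with the standard error from limma as bars; filled points are genes whose groups did not overlap, and the dashed line is the median of all tested genes (-0.06). CXCL8 and NFKBIA lie farthest to the left and CCL2 farthest to the right, and most other genes lie between -0.70 and 0.

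Secreted targets were dominated by 4 transcripts. IL32, CXCL8, LIF and CCL2 made up most of the summed level of the 14 cytokine and chemokine genes, which was 65.8 and 52.4 TPM in control cells and 50.4 and 40.1 TPM in knockdown cells. Of the 14, 7 were tested and 7 stayed below the filter, among them the classical inflammatory cytokines IL6, IL1A and IL1B. The 7 tested had a median log2(TPM + 1) difference of -0.22.

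CXCL8 encodes interleukin-8, a chemokine that draws neutrophils (chromosome 4, 73740506 to 73743716, GRCh38). It was at 17.2 and 11.1 TPM in control cells and at 5.25 and 2.95 TPM in knockdown cells. Both knockdown libraries lay below the lower control, although the replicates within each group also differed. The mean was 14.2 ± 4.29 TPM in control cells and 4.10 ± 1.63 TPM in knockdown cells, 3.46-fold lower. On the log2(TPM + 1) scale the difference was -1.58 (SE 0.31), with a limma adjusted p of 0.117 over all genes and 0.0283 among protein-coding genes alone. Over 12 alternatives the adjusted p reached 0.285 at most, with no filter on level.

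CCL2, a chemokine that draws monocytes, went the other way. It was at 6.52 and 2.86 TPM in control cells and at 10.8 and 6.82 TPM in knockdown cells. Both sh-PURB libraries were above both controls, but the lower sh-PURB library was only just above the higher control (limma adjusted p = 0.393, log2 difference 0.83, SE 0.38). With sh-NC replicate 2 left out the CCL2 difference was 0.35, and with sh-NC replicate 1 left out it was 1.31. Leaving out sh-PURB replicate 1 gave 0.54. The ratio of CXCL8 to CCL2 transcripts was 2.64 and 3.88 in the control libraries and 0.487 and 0.432 in the sh-PURB libraries. CXCL8 thus exceeded CCL2 in each control and was exceeded by it in each sh-PURB library. Of the listed genes that were tested, these had the lowest and the highest difference. The separation of their ratio therefore follows from the values above and adds nothing to them.

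As a share of the summed 14 genes, CXCL8 took 26.1% and 21.2% in sh-NC and 10.4% and 7.34% in sh-PURB. CCL2 took 9.90% and 5.46% in sh-NC and 21.3% and 17.0% in sh-PURB. The share of IL32 was alike in all libraries, between 30.1% and 35.0%. No interval is given for these shares because the read counts are unknown.

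**Figure D4:**
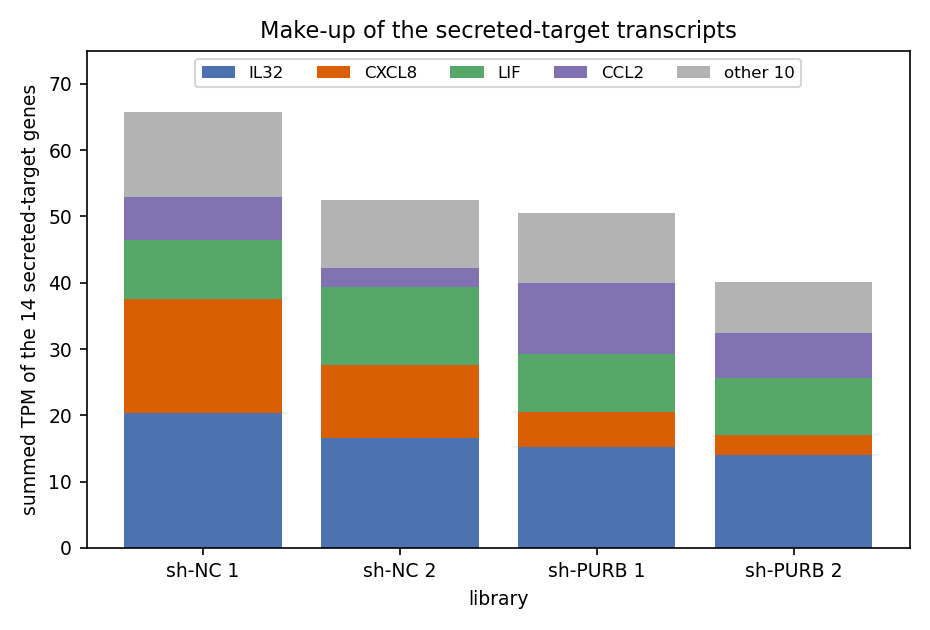
Summed TPM of the 14 secreted-target genes in each library, as stacked bars for IL32, CXCL8, LIF, CCL2 and the other 10 together. The CXCL8 segment shrinks from 17.2 and 11.1 TPM in the control libraries to 5.25 and 2.95 TPM in the knockdown libraries, while the CCL2 segment is taller in both sh-PURB libraries.

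IL32, a cytokine gene that mice lack, was at 20.4 and 16.5 TPM in control cells and at 15.2 and 14.0 TPM in knockdown cells, a ratio of 0.793 (limma adjusted p = 0.404). LIF, a cytokine of the interleukin-6 family, was at 8.90 and 11.8 TPM in control cells and at 8.75 and 8.61 TPM in knockdown cells. Neither overlapped between groups, but LIF was separated only by the gap from 8.75 to 8.90 TPM. IL11, another member of that family, was at 3.44 and 3.17 TPM in control cells and at 3.19 and 2.03 TPM in knockdown cells, with overlap. CSF1, the macrophage growth factor, was at 2.67 and 3.50 TPM in control cells and 2.93 and 2.56 TPM in knockdown cells, also with overlap. CCL20, which draws cells bearing the receptor CCR6, was at 3.16 and 1.71 TPM in control, and both sh-PURB values, 2.02 and 1.84 TPM, fell between them.

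The secreted targets below the filter were not tested. CSF2, which encodes GM-CSF, was at 1.62 and 0.841 TPM in control cells and at 0.437 and 0.226 TPM in knockdown cells, and the groups did not overlap. IL6 was at 0.387 and 0.190 TPM in control cells and at 0.801 and 0.533 TPM in knockdown cells, higher in both. IL1B was at 0.475 and 0.320 TPM in control cells and at 0.260 and 0.274 TPM in knockdown cells, and IL1A was between 0.0730 and 0.514 TPM with overlap. CXCL3 lay between 0.137 and 0.761 TPM and CXCL2 between 0 and 0.217 TPM. CXCL1 was listed at 0 in 3 libraries and at 0.0163 TPM in the fourth. Reads of these 3 chemokine genes, which are close copies of each other, may be split between them, so their single values are uncertain.

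The 3 genes of signalling and survival that passed the filter (of 5) all lay lower, with a median log2(TPM + 1) difference of -0.51. BIRC2 and BIRC3 are neighbours on chromosome 11 and encode the ubiquitin ligases cIAP1 and cIAP2, which act with TRAF2 at the TNF receptor. BIRC2 was at 11.1 and 14.0 TPM in control cells and at 8.89 and 8.83 TPM in knockdown cells, a ratio of 0.705 (log2 difference -0.45, SE 0.16, limma adjusted p = 0.278). BIRC3 was at 5.14 and 3.16 TPM in control cells and at 2.80 and 1.98 TPM in knockdown cells, a ratio of 0.575 (limma adjusted p = 0.382). TRAF2, the adaptor that recruits both, was at 12.2 and 8.16 TPM in control cells and at 7.79 and 5.80 TPM in knockdown cells (ratio 0.666, limma adjusted p = 0.403).

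The 3 genes were lower without overlap, as were 29.3% of all tested genes, and none passed the threshold. The closest approach was in TRAF2, where the highest sh-PURB value of 7.79 TPM stood beside a control of 8.16 TPM. TRAF1, an NF-kB-induced relative of TRAF2, was below the filter at 0.321 to 0.749 TPM, and the interleukin-1 receptor kinase gene IRAK2 at 0.266 to 0.411 TPM, both with overlap.

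Of the other targets, SOD2, which encodes the mitochondrial manganese superoxide dismutase, was the most abundant of all 34 genes. SOD2 was at 40.7 and 32.3 TPM in control cells and at 42.9 and 33.1 TPM in knockdown cells, with a ratio of 1.04 and full overlap (limma adjusted p = 0.924). TNFAIP2, a TNF-induced gene tied to membrane protrusions, was at 9.76 and 12.0 TPM in control cells and at 5.25 and 7.91 TPM in knockdown cells. The TNFAIP2 groups did not overlap (ratio 0.604, log2 difference -0.67, SE 0.22, limma adjusted p = 0.272). PTGS2, which encodes the inducible cyclooxygenase, and the adhesion molecule gene ICAM1 were below the filter. PTGS2 was at 0.470 and 0.574 TPM in control cells and at 0.212 and 0.342 TPM in knockdown cells, and ICAM1 was between 0.147 and 0.465 TPM in all libraries.

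The kB-type motif was present both in genes that lay lower and in genes that did not. Among the tested genes lower without overlap, NFKBIA, CXCL8, TNFAIP3, BCL3, BIRC3, TNFAIP2 and IL32 held a match in a window before a start, and RELA, BIRC2 and TRAF2 did not. NFKB1, NFKB2, REL, NFKBIB, NFKBIZ and CCL20 also held one, and their groups overlapped. IL11 and SOD2, whose groups overlapped too, held none. The other tested genes, LIF, RELB, NFKBIE, CSF1 and CCL2, had no window.

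Other genes of the pathway were read from 4 lists with 72 genes, of which 59 were tested. Over all genes limma called 0 of the 59, and an unadjusted p under 0.05 was reached by 11 that lay lower (background 9.53%) and 2 that lay higher (background 5.77%). In the fit of protein-coding genes, 5 of the 59 were called lower (8.47%, background 2.15%) and 0 higher. The groups did not overlap for 21 that lay lower (35.6%, background 29.3%) and 9 that lay higher (15.3%, background 18.6%). By this count the pathway lists were near the background, and by the share called lower among protein-coding genes they were above it.

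The receptors and adaptors (15 of 18 tested) had a median log2 difference of -0.03, with 7 members above 0 and 8 below. TLR4, the lipopolysaccharide receptor, was at 7.55 and 7.53 TPM in control cells and at 4.10 and 3.61 TPM in knockdown cells (log2 difference -0.82, SE 0.15, limma adjusted p = 0.0987, or 0.0433 among protein-coding genes). TNFRSF1A, the main TNF receptor gene, was at 31.5 and 34.1 TPM in control cells and at 22.3 and 24.8 TPM in knockdown cells (limma adjusted p = 0.177). The interleukin-1 receptor gene IL1R1 was at 1.27 TPM in both control libraries and at 0.389 and 0.537 TPM in knockdown cells. Its co-receptor gene IL1RAP was at 7.73 and 12.3 TPM in control cells and at 5.38 and 6.45 TPM in knockdown cells. These 4 are the receptor genes with the smallest p in the list and did not overlap between groups, while 6 of the 15 tested did. Of the 15, 7 were lower without overlap (background 29.3%) and 2 higher (background 18.6%). IL1R1, counted among the lower, reached 1 TPM only in the control libraries, so passing the filter in that way fixed its lack of overlap.

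The kinases and ubiquitin enzymes (18 of 18 tested) were evenly split, with 9 above and 9 below 0 and a median of 0.0015. MAP3K14, which encodes the NF-kB-inducing kinase of the non-canonical pathway, was at 3.92 and 3.50 TPM in control cells and at 1.86 and 2.06 TPM in knockdown cells (ratio 0.529, limma adjusted p = 0.181). RBCK1, a subunit of the linear ubiquitin ligase, was at 13.4 and 11.4 TPM in control cells and at 16.1 and 15.1 TPM in knockdown cells. TNIP1, a partner of A20, had a ratio of 0.860, and the IkB kinase relative IKBKE a ratio of 0.758. Adjusted p-values in limma for RBCK1, TNIP1 and IKBKE lay between 0.368 and 0.476.

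Of 26 further NF-kB targets, 16 were tested, with 5 above and 11 below 0 and a median of -0.14. MMP9, the gelatinase gene, was at 6.66 and 4.03 TPM in control cells and at 1.08 and 0.631 TPM in knockdown cells, 6.24-fold lower (limma adjusted p = 0.0854). IER3, an immediate early gene, was at 37.8 and 37.1 TPM in control cells and at 19.7 and 15.2 TPM in knockdown cells (limma adjusted p = 0.0744). VEGFC, a growth factor of lymphatic vessels, was at 5.85 and 7.04 TPM in control cells and at 2.78 and 2.93 TPM in knockdown cells. TNFAIP8, a TNF-induced gene, had a ratio of 0.580. MMP9, IER3 and VEGFC were called lower among protein-coding genes alone (limma adjusted p = 0.0150, 0.0157 and 0.0285), and TNFAIP8 was not (0.0767). Of the 5 tested targets above 0, BCL2L1 and PLAU were the 2 without overlap between groups (background 18.6%), and they are named after their values were seen. BCL2L1, a survival gene of the BCL2 family, was at 16.2 and 14.9 TPM in control cells and at 28.8 and 20.3 TPM in knockdown cells (ratio 1.58, limma adjusted p = 0.252). PLAU, the urokinase gene, was at 7.91 and 6.90 TPM in control cells and at 15.1 and 8.41 TPM in knockdown cells (ratio 1.59, limma adjusted p = 0.427).

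Partner factors of the AP-1 and C/EBP families often act with NF-kB at cytokine promoters, and all 10 were tested, with a median of -0.21. JUNB was at 24.6 and 26.5 TPM in control cells and at 9.19 and 11.9 TPM in knockdown cells, a ratio of 0.413 (limma adjusted p = 0.0673, or 0.0101 among protein-coding genes). ATF3 was at 1.58 and 2.27 TPM in control cells and at 3.83 and 4.08 TPM in knockdown cells, a ratio of 2.06 (limma adjusted p = 0.180). CEBPB had a ratio of 0.847 without overlap and FOSL1 one of 0.773 with overlap.

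**Figure D5:**
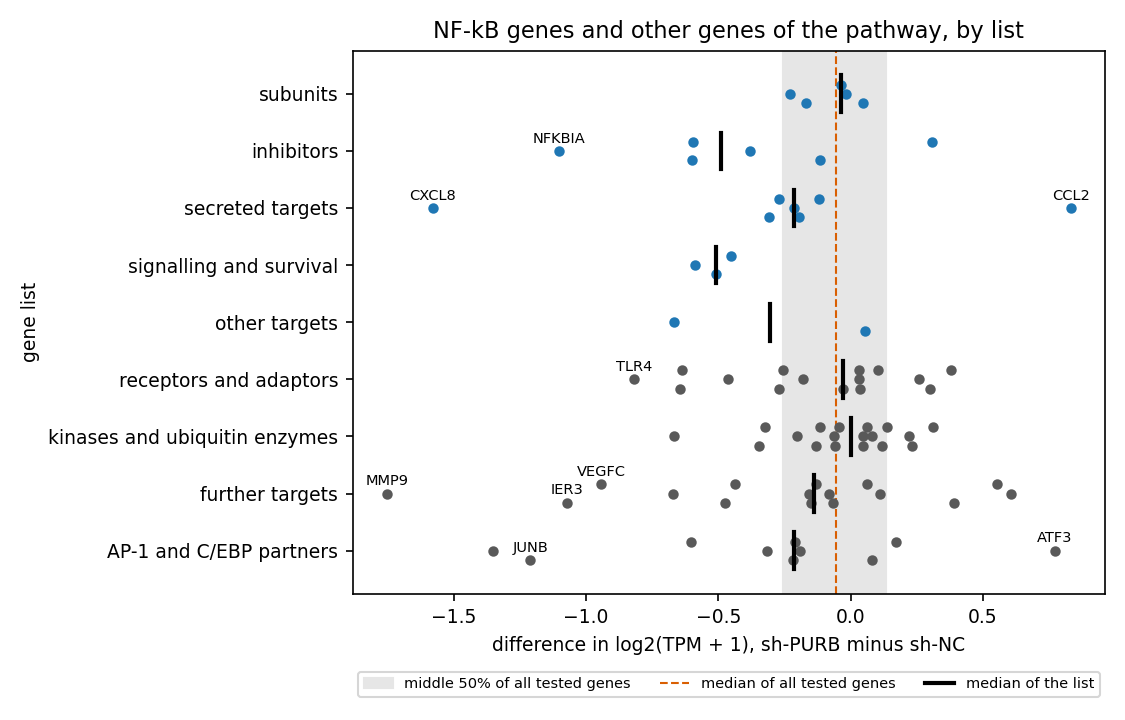
Differences in log2(TPM + 1), sh-PURB minus sh-NC, of the tested genes by list; blue points are the NF-kB genes, grey points other genes of the pathway, black bars the median of each list, the band the middle 50% of all tested genes and the dashed line their median. NFKBIA, CXCL8, MMP9, IER3 and JUNB lie well to the left of the band, while the medians of the lists lie inside it except for the inhibitors, the genes of signalling and survival and the other targets.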

How the data were processed

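Total RNA of 2 sh-NC and 2 sh-PURB libraries was compared, grouped by title. Per the file headers and values, the authors deposited TPM for each gene symbol, and the per-library tables hold the same values as the table of all samples. Named in the submitters' processing notes, without their roles, are the tools bcl2fastq 2.19, kallisto 0.44.0, DESeq2 and sleuth, and both GRCm38 (mouse) and GRCh38 (human). Strand setting and annotation are not given in the sources used here. Overlapping antisense genes therefore cannot be separated. A row with no name (0.921% to 1.66% of a library) was left out.

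Values were taken as log2(TPM + 1) for genes with at least 1 TPM in at least 2 libraries (14269) and fitted in limma 3.58.1 (R 4.3.3) (empirical Bayes, trend on intensity), with Benjamini-Hochberg adjustment over all of them. For low genes this scale understates a change. Ratios use mean TPM. Residual degrees of freedom were 2. The steps were also run on simulated data. These had independent noise for each gene and no shift in library make-up, so they do not cover such shifts. Gene types and gene coordinates came from GENCODE v29 on GRCh38, and promoters from RefSeq (GRCh38.p14).

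The genes and lists were chosen with earlier results of these data known, and the motifs after promoters had been searched. All 34 genes are reported. From each pathway list came genes that passed the threshold and up to 4 with the smallest unadjusted p. Alternatives were a pseudocount of 0.1, filters at TPM 5 and at none, rescaling by median ratios, TPM recomputed after removing mitochondrial genes and any gene over 1 percent of a library, protein-coding genes only, limma without trend, the replicate number as a block, and leaving out each library. Figures used Python 3.11.15 and matplotlib 3.10.9.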

Additional observations from a re-analysis of the deposited data

How the results depend on the processing

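The count of genes called over all genes in limma depended on the setting. As reported it was 41, with U1 RNA genes of identical values, such as RNU1-1 and RNU1-2, counted separately. It was 0 with a pseudocount of 0.1, with no filter and with no trend (2155, 3031 and 2089 genes at an unadjusted p under 0.05, and 2184 as reported), 121 with the filter at TPM 5, 415 among protein-coding genes, 84 with recomputed TPM and 78 with median-ratio rescaling. It was 131 without sh-NC replicate 1, 155 without sh-NC replicate 2, and 0 when either library of the knockdown group, replicate 1 or 2, was left out (1332 and 2423 at an unadjusted p under 0.05), fits in which the lone library is assumed to vary like the other group. Of the listed NF-kB genes, 0 of 23 were called as reported, where 41 of all 14269 tested genes were. With the filter at TPM 5 it was 1 of 14 (NFKBIA), where 121 of all 8597 were. Among protein-coding genes it was 2 of 23, where 415 of all 11928 were. Without 1 library the CXCL8 difference ran from -1.91 to -1.25. The PURB difference passed among protein-coding genes (-0.91, limma adjusted p = 0.0313) and in no other setting.

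The titles give both groups the same replicate numbers, but nothing says that a number marks a shared culture or day. Deviations of same-numbered libraries from their group means correlated at 0.19 across genes. With the replicate block limma called 118 of all 14269 tested genes and 1 of the 23 listed genes tested, CXCL8 (adjusted p = 0.0408).

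Recomputed TPM moved the median of all genes by 0.13, from -0.06 to 0.07, and that of the 23 tested genes to -0.10, still 0.16 below all genes (-0.16). The sign turned for NFKB2, to 0.038, 0.10 and 0.0100 and for REL, to 0.043, 0.10 and 0.021 with rescaling by median ratios, with recomputed TPM and in protein-coding genes, and for NFKBIE, to 0.015 with recomputed TPM. Without 1 library, differences ran from -0.50 to 0.11 for CCL20, -0.27 to 0.026 for CSF1, -0.091 to 0.18 for NFKB1, -0.23 to 0.15 for NFKB2, -0.00044 to 0.61 for NFKBIB, -0.33 to 0.10 for NFKBIE, -0.96 to 0.19 for NFKBIZ, -0.17 to 0.14 for REL, -0.40 to 0.058 for RELB and -0.13 to 0.24 for SOD2. The cause of these changes was not tested. TPM gives no depth, so the counting error of genes near 1 TPM is unknown.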

Other observations

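Some immediate early genes differed more between replicate numbers than between groups, and they were chosen after their values were seen. FOS was at 9.26 and 79.1 TPM in control cells and at 2.04 and 40.5 TPM in knockdown cells, higher in replicate 2 of each group. FOSB was at 0.391 and 4.91 TPM in control cells and at 0.148 and 2.11 TPM in knockdown cells. JUN was at 9.63 and 15.0 TPM in control cells and at 8.48 and 12.7 TPM in knockdown cells. NFKBIZ showed the same order, at 12.0 and 20.5 TPM in control cells and at 7.61 and 18.1 TPM in knockdown cells.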
